A study of Mus musculus with 28 samples.

Results

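The respiratory chain genes encode the protein subunits of the 5 complexes of oxidative phosphorylation, the process by which mitochondria make ATP. They were chosen by name in 2 gene count tables from lateral ventricle choroid plexus of male mice: protein-coding symbols of the Nduf (complex I), Sdh (complex II), Uqcr (complex III), Cox4 to Cox8 (complex IV) and Atp5 (complex V, ATP synthase) families, and the 13 protein genes of the mitochondrial genome. The names matched 99 of the 27179 genes listed, and 91 had a mean of at least 1 CPM (a count scaled to the size of its library) in 1 table or both. The young table held 88 of them, 76 nuclear and 12 mitochondrial, and the aged one held 91, 78 nuclear and 13 mitochondrial. All of them entered the test. By complex, the young table held 42, 3, 8, 17 and 18 genes for complexes I to V, and the aged one 43, 3, 8, 18 and 19.

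The study measured poly(A) RNA from 28 libraries in 7 groups of 4. Young wild-type males (labelled 3 months old, 3 to 4 months in the design text, C57/BL6) were sampled undisturbed in the middle of the light phase (ZT6, 6 h after lights on), at ZT6 after 6 h of sleep disruption, or in the middle of the dark phase (ZT18). Aged males of 12 to 14 months were either J20+ or their J20- littermates, called wild-type below, and were sampled at ZT6 (day) or ZT18 (night). The J20 line bears a transgene for human amyloid precursor protein with familial Alzheimer mutations, driven by a neuronal promoter (PDGF-B). The young libraries are batch 1 and the aged libraries batch 2, so age and batch cannot be told apart, and comparisons were made within a table. No label ties a library to a numbered mouse beyond its name, so p-values measure the spread between libraries within groups. That spread was estimated over all groups of a table together. Libraries of groups outside a comparison therefore also enter its p-values.

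Complex I takes electrons from NADH and complex II from succinate, complex III passes them on to cytochrome c, and complex IV hands them to oxygen. The protons moved by complexes I, III and IV drive ATP synthase. Most subunits are encoded in the nucleus, but the membrane core of complex I, cytochrome b of complex III, the catalytic core of complex IV and part of the proton channel of ATP synthase are encoded in mitochondrial DNA. Choroid plexus epithelium is rich in mitochondria and spends much ATP on the sodium pump that drives cerebrospinal fluid secretion.

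Young libraries held 22466931 to 28982168 counts and aged libraries 14632089 to 43885898 counts. All 12 choroid epithelium markers listed, among them Ttr and Folr1, averaged at least 1 CPM in both tables. The 30 listed neuron, oligodendrocyte and astrocyte markers summed to 208 to 813 CPM in young libraries. In aged libraries they summed to 321 to 3294 CPM in wild-type day, 1198 to 8117 in wild-type night, 321 to 3226 in J20+ day and 318 to 1799 in J20+ night, and all 30 averaged at least 1 CPM. Choroid epithelium markers summed to 41740 to 51021 CPM in wild-type day and 23737 to 34884 in wild-type night, with no overlap. Library J20+ night 2 stood apart, with a choroid epithelium sum of 23413 CPM against 44674 to 46483 in the other J20+ night libraries. In dissected tissue, fewer cells of a type and less RNA per cell cannot be told apart. The mouse App count does not check a human transgene, so no value here checks the J20 labels.

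The mitochondrial genes differed in how far their reads can be told from those of nuclear copies, and the sequences show it. Copies of mitochondrial DNA lie in the nuclear genome, and a read that matches both places cannot be assigned from sequence alone. For such reads the counting rule is not given in the sources used here. Shown are the first 60 bases of mt-Co2, subunit 2 of complex IV (chrM:7013-7072, plus strand, GRCm38), with the same stretch of its chromosome 1 copy, the unprocessed pseudogene Gm28661 (chr1:24615506-24615565, minus strand). The start of mt-Nd1, a complex I core subunit (chrM:2751-2810, plus strand), is shown for contrast, and a capital would mark a base that differs between gene and copy.
mt-Co2: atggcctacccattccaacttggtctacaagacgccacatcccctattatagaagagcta
Gm28661: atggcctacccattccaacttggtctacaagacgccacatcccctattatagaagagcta
mt-Nd1: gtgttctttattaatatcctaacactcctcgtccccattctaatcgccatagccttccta

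No base differed between mt-Co2 and Gm28661 over 681 aligned bases, and none between mt-Co3 and Gm28437 over 783. Of the 50-base windows of mt-Co2, mt-Co3, mt-Atp6, mt-Nd3 and mt-Nd4l, 98.0 to 100% also occurred in another annotated transcript. No window of mt-Nd1, mt-Nd6, mt-Cytb or mt-Atp8 did, while 51.1% of those of mt-Co1 and 62.2% of those of mt-Nd4 did. In the young table mt-Co1, the catalytic subunit of complex IV, averaged 8375 CPM and mt-Co2 only 8.37 CPM. Per kilobase of transcript, the 7 less shared genes mt-Nd1, mt-Nd2, mt-Nd4, mt-Nd5, mt-Nd6, mt-Co1 and mt-Cytb lay between 1947 and 5421 CPM, and the 5 nearly fully shared genes between 7.83 and 124. The levels of those 5 genes are therefore uncertain. mt-Atp8, which overlaps mt-Atp6 in 21.1% of its bases, had no window in another annotated transcript but was low as well. It stood at 0 to 1.23 CPM in young and 0.105 to 7.10 CPM in aged libraries. mt-Atp8 starts between mt-Co2 and mt-Atp6, whose copies are neighbours on chromosome 1 (chr1:24614885-24615565 and chr1:24613974-24614651). Sequence outside annotated transcripts was not searched, so whether mt-Atp8 has a copy there was not tested. mt-Nd6 lies opposite the other genes, and the strand setting of the counting is not given in the sources used here.

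**Figure D1:**
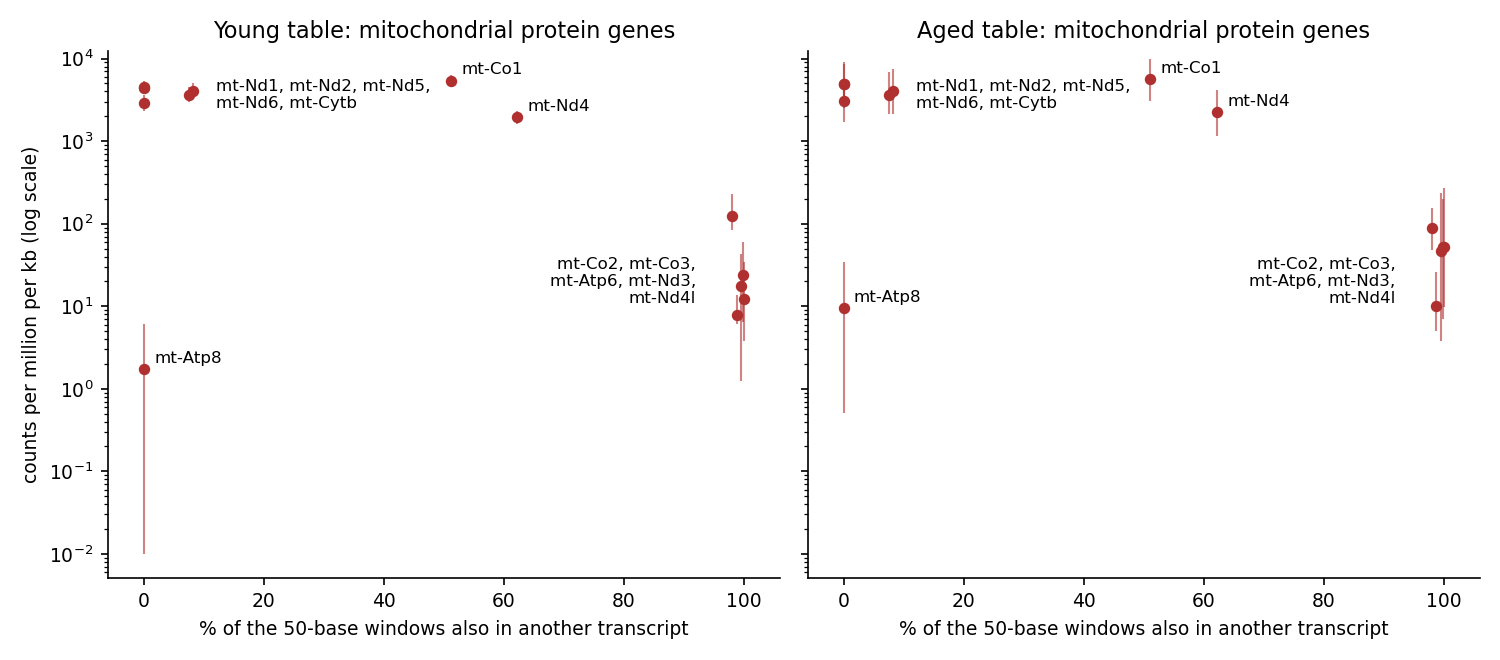
Mitochondrial protein genes by the percentage of their 50-base windows found in another annotated transcript (horizontal axis) and their level in CPM per kilobase (vertical axis, log scale), young libraries left and aged libraries right. Points are means over libraries and lines run from the lowest to the highest library, with 0 drawn at the foot of the axis; the 5 genes at 98.0 to 100% lie below 300 CPM per kilobase in each library, as does mt-Atp8.

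Among nuclear genes, levels per kilobase rest on 1 transcript per gene and spanned more than 2 orders of magnitude. Genes were grouped by name, so Ndufa4, a small subunit that associates with complex IV, is counted under complex I throughout. In the young table the highest complex I genes were Ndufa4 (595 CPM per kilobase), Ndufa1 (215) and Ndufs1 (189), an iron-sulfur core subunit. The lowest were Ndufa12 (6.27), Ndufs7 (3.84) and Ndufa8 (1.88). In complex II, Sdha, the flavoprotein that oxidises succinate, stood at 177, Sdhc at 48.7 and Sdhb at 41.2. In complex III, Uqcrh (543) and Uqcrb (495) were highest and Uqcrq (9.50) lowest. In complex IV, Cox7b (196), Cox6c (196) and Cox5a (195) were highest and Cox7a2 (3.09) lowest. In complex V, Atp5b, the catalytic beta subunit, stood at 633, Atp5g3, a copy of the membrane ring subunit c, at 557, and Atp5d at 3.84.

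The aged table had the same leading gene in complexes I, II, III and V: Ndufa4 at 525 CPM per kilobase, Sdha at 183, Uqcrh at 485 and Atp5b at 749. Complex IV was led by Cox4i1, the regulatory subunit 4, at 999.5. Cox4i1 averaged 765 CPM in aged libraries, with a lowest value of 568, and its highest young value was 190 CPM. Ndufa8 lay between 0.749 and 2.55 CPM in young libraries and between 20.6 and 42.3 in aged ones, and Ndufs7 between 1.73 and 5.76 and between 67.1 and 167. The 76 young nuclear genes gave a Spearman rho of -0.392 between level per kilobase and GC content, and the 78 aged ones 0.122, each across genes that share libraries and a length estimate. The median young level was 119 CPM per kilobase for genes under 50% GC and 53.6 for the others; the aged medians were 153 and 198. Since age and batch coincide, these differences between the tables cannot be assigned to either.

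The genes below 1 CPM numbered 11 in the young and 8 in the aged table. Cox8c, a testis form of subunit 8, had no count in any library. Sdhd, a membrane anchor of complex II, had at most 5 counts in a library and Uqcr11 at most 6. Ndufa6 averaged under the minimum in the young table, with 0.237 to 0.932 CPM, but lay between 20.8 and 48.9 CPM in aged libraries. The hypoxia-linked Cox4i2 reached a mean of 1.04 CPM in the aged table alone, and Cox6a2, the heart and muscle form of subunit 6a, at most 1.80 CPM in a library.

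Cox8b, the heart and muscle form of subunit 8, and Cox6b2, described mainly in testis, are subunit isoforms that choroid plexus expressed beside the general forms. As a percentage of Cox8a per kilobase, Cox8b stood at 7.15, 8.22, 6.26 and 9.02% in the 4 young day libraries. It stood at 8.41, 13.2, 10.6 and 11.5% after sleep disruption and at 14.7, 15.4, 13.1 and 14.3% at night. Young day and young night did not overlap in this ratio. In aged libraries it ranged from 27.1 to 79.0%. Cox6b2 stood at 14.0 to 22.7% of Cox6b1 in young and 32.4 to 47.2% in aged libraries. Of 8 striated muscle markers listed, Myl3 and Actc1 were at 0 in the young table and 1 averaged at least 1 CPM; in aged libraries 3 did, and the list summed to 7.02 to 12.8 CPM in young and 35.7 to 57.6 CPM in aged libraries. Their part in the Cox8b level was not tested.

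Promoters were read from RefSeq for GRCm38.p6, and 65 of the 78 nuclear genes matched. Motifs of nuclear regulators of respiration were searched on both strands in the 250 bases before each start. The NRF1 core GCGCATGC was present in 8 of the 70 windows of these genes (11.4%) and in 2.26% of all 32851 windows. The ETS motif CCGGAAG, read by GABP, was present in 14.3% and 6.91%, the ERR alpha motif AAGGTCA in 7.14% and 4.08%, and the YY1 motif AAGATGGC in 1.43% and 1.56%. The E-box CACGTG was present in 10.0% and 6.02%, and the SP1 motif GGGCGGG in 28.6% and 23.4%. The median GC content was 56.2% in these windows and 52.4% in all. A match is a string of letters and not a bound site. Shown are 100 bases of the Cox6a1 promoter (chr5:115349071-115349170, minus strand) and of the Sdhb promoter (chr4:140961167-140961266, plus strand) with the NRF1 core in capitals, and the last 100 bases before the Cox8b start (chr7:140900447-140900546, minus strand), whose window held none of the 6 motifs.
Cox6a1: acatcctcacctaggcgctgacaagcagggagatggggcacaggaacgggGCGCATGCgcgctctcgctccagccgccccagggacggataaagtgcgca
Sdhb: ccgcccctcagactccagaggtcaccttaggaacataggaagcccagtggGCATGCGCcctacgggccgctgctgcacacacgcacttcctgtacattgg
Cox8b: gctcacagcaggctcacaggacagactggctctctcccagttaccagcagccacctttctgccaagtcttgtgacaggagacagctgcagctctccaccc

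As a share of all counts, nuclear respiratory chain genes made up 1.03% ± 0.0793 (SD, n = 4) in young day, 1.15% ± 0.1101 after sleep disruption and 1.05% ± 0.138 in young night. The mitochondrial genes made up 3.36% ± 0.293, 3.24% ± 0.1095 and 3.21% ± 0.351. All 3 groups overlapped in both shares. In aged libraries the nuclear share was 1.67% ± 0.212 in wild-type day, 1.97% ± 0.263 in wild-type night, 1.45% ± 0.0538 in J20+ day and 1.57% ± 0.210 in J20+ night. The mitochondrial shares were 3.51% ± 0.782, 4.81% ± 0.936, 2.49% ± 0.636 and 3.48% ± 2.50. Library J20+ night 2 held 7.21% mitochondrial counts against 1.87 to 2.53% in the other 3 libraries of its group.

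**Figure D2:**
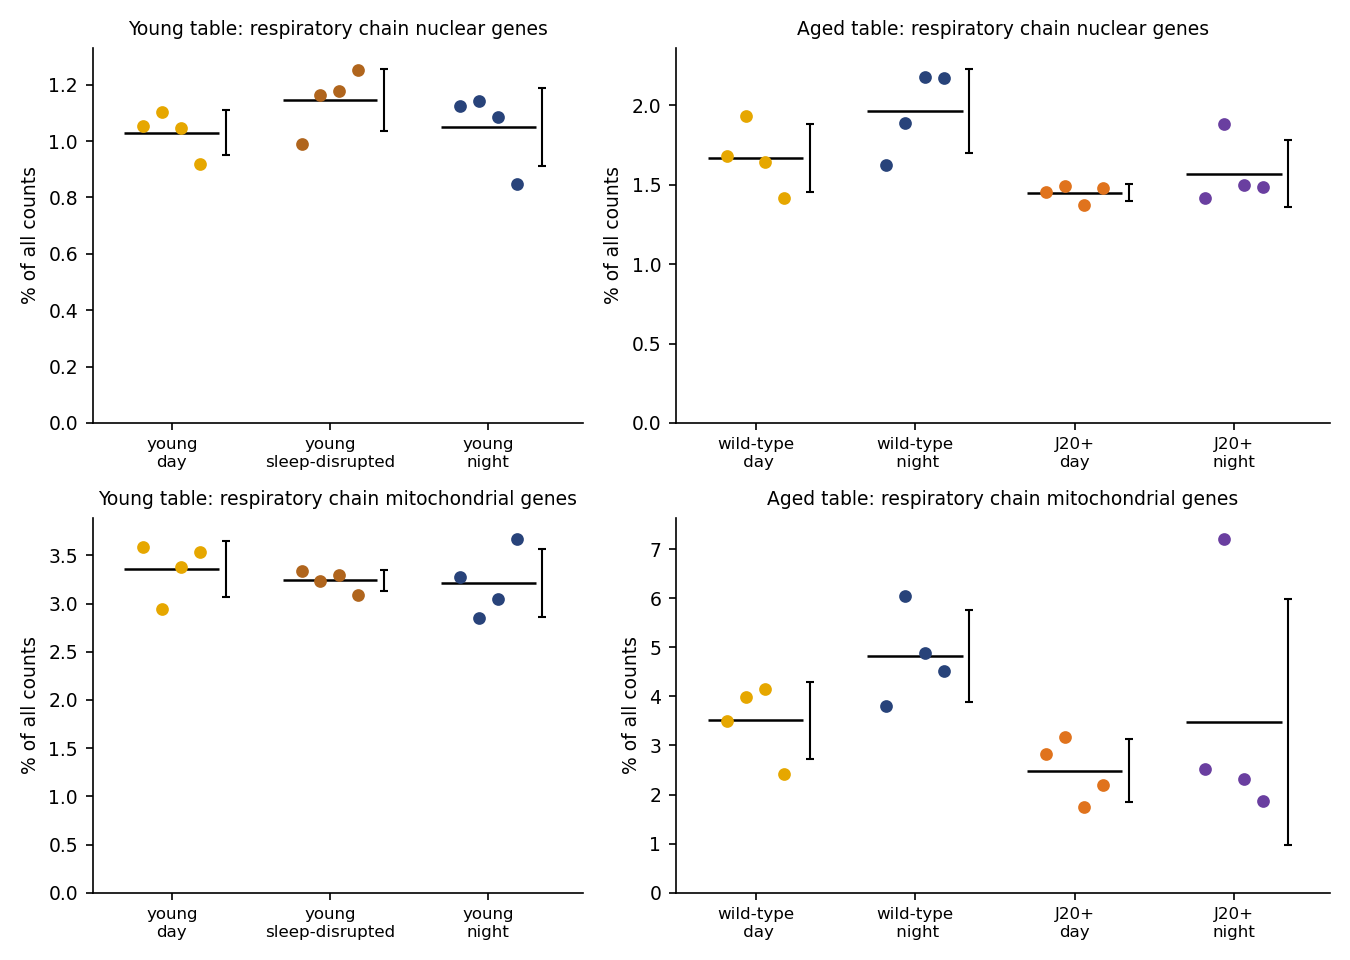
Percentage of all counts in nuclear (top) and mitochondrial (bottom) respiratory chain genes, young table left and aged table right. Points are libraries, lines are means and bars are 1 SD (n = 4); the mitochondrial share of J20+ night 2, at 7.21%, is the highest point.

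No respiratory chain gene passed an adjusted p of 0.05 in any of the 8 comparisons (edgeR quasi-likelihood test, Benjamini-Hochberg over all genes of the table). Log2 differences are given below as the first group minus the second with their standard error. Medians over nuclear and mitochondrial genes are set beside the median over all genes tested, as descriptions. RLE and upper-quartile scaling left the sign of the nuclear and of the mitochondrial median as it was in all 8 comparisons. Upper-quartile scaling moved the median over all genes to 0.15 in aged wild-type night minus day and to -0.16 in J20+ minus wild-type at night. The nuclear medians themselves were then 0.39 and -0.44.

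**Figure D3:**
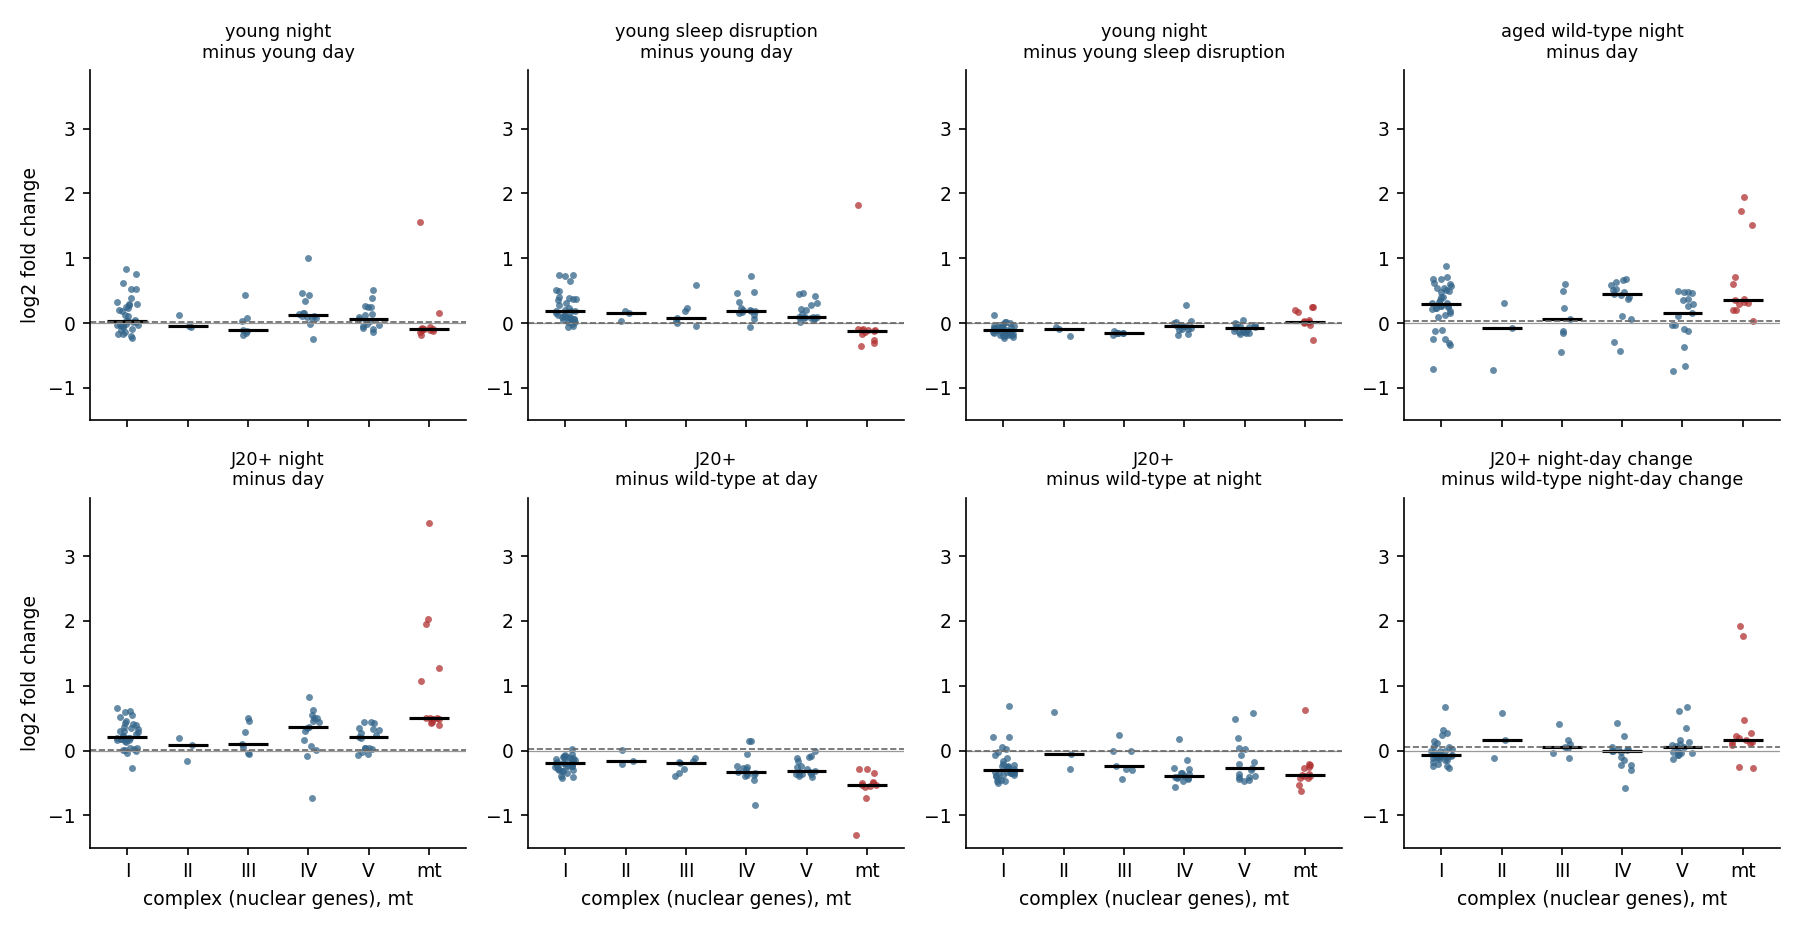
Log2 fold change of respiratory chain genes in the 8 comparisons, by complex for nuclear genes (blue) and together for mitochondrial genes (mt, red). mt-Atp8 in J20+ minus wild-type at day, at -2.20, lies below the axis and is not drawn. Black bars are medians of each set and the dashed line is the median over all genes tested; nuclear medians of J20+ minus wild-type at day lie below 0 in all 5 complexes, and no point passed the test.

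The young night minus day comparison asks how the middle of the dark phase differs from the middle of the light phase. Cox8b had the smallest p. Its level was 4.17, 5.33, 3.66 and 4.25 CPM in the day libraries, 4.47, 8.86, 7.20 and 8.31 after sleep disruption, and 10.0, 10.4, 8.26 and 6.31 at night. All 4 night values lay above all 4 day values. The log2 difference was 1.01 ± 0.22 (edgeR adjusted p = 0.119). Without young night 4, the night library lowest for Cox8b, the edgeR adjusted p was 0.0353, in a fit that called 0.724% of all genes. Of 15 alternatives 4 called Cox8b, and the highest adjusted p among the 15 was 0.365, by edgeR. Ndufs1 stood at 546, 490, 574 and 530 CPM by day and 480, 451, 465 and 422 by night, with no overlap and a log2 difference of -0.23 ± 0.07 (edgeR adjusted p = 0.242). Cox5a, a nuclear-encoded subunit of complex IV, gave -0.24 ± 0.07 (edgeR adjusted p = 0.279), with day values of 139, 118, 138 and 143 CPM and night values of 114, 109, 111 and 120 CPM that overlapped.

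edgeR called 0 of the 88 genes, with 0.267% of all genes called, and 9 were under an unadjusted p of 0.05, against 9.39% of all genes. DESeq2 called 3 (Cox8b, Ndufs1 and Uqcrfs1), with 1.73% of all genes called. limma-voom with quality weights called 32, with 18.9% of all genes called. Groups did not overlap for Cox8b and mt-Co2, higher at night, where 1.97% of all genes did so, and for Ndufs1 and Uqcrfs1, the Rieske iron-sulfur protein of complex III, lower at night, where 2.72% did. The median log2 difference was 0.075 over nuclear genes, with 48 of 76 above 0, -0.094 over mitochondrial genes, with 2 of 12 above 0, and 0.020 over all genes. Leaving out 1 library moved the nuclear median to 0.034, 0.038 and 0.15 without young night 2, 1 and 4 and to 0.045 without young day 4. The mitochondrial median moved to -0.24, -0.021 and -0.055 without young night 4, 2 and 3 and to -0.19 and -0.031 without young day 2 and 4. By complex the nuclear medians were 0.037, -0.038, -0.10, 0.13 and 0.063 for I to V. Of the other listed subunits, Ndufv1, which binds NADH, gave 0.29 ± 0.23, Cox4i1 0.35 ± 0.22 and Uqcrc1 0.08 ± 0.22. Sdha gave -0.06 ± 0.07, Sdhb -0.04 ± 0.15, Atp5a1 -0.04 ± 0.08 and Atp5b 0.03 ± 0.11. The 7 mitochondrial genes with less shared sequence lay between -0.14 and -0.091. mt-Co2 gave 1.56 ± 0.60, with day values of 2.61 to 4.17 CPM and 1 night library at 23.6 CPM against 4.25 to 6.74 in the others.

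**Figure D4:**
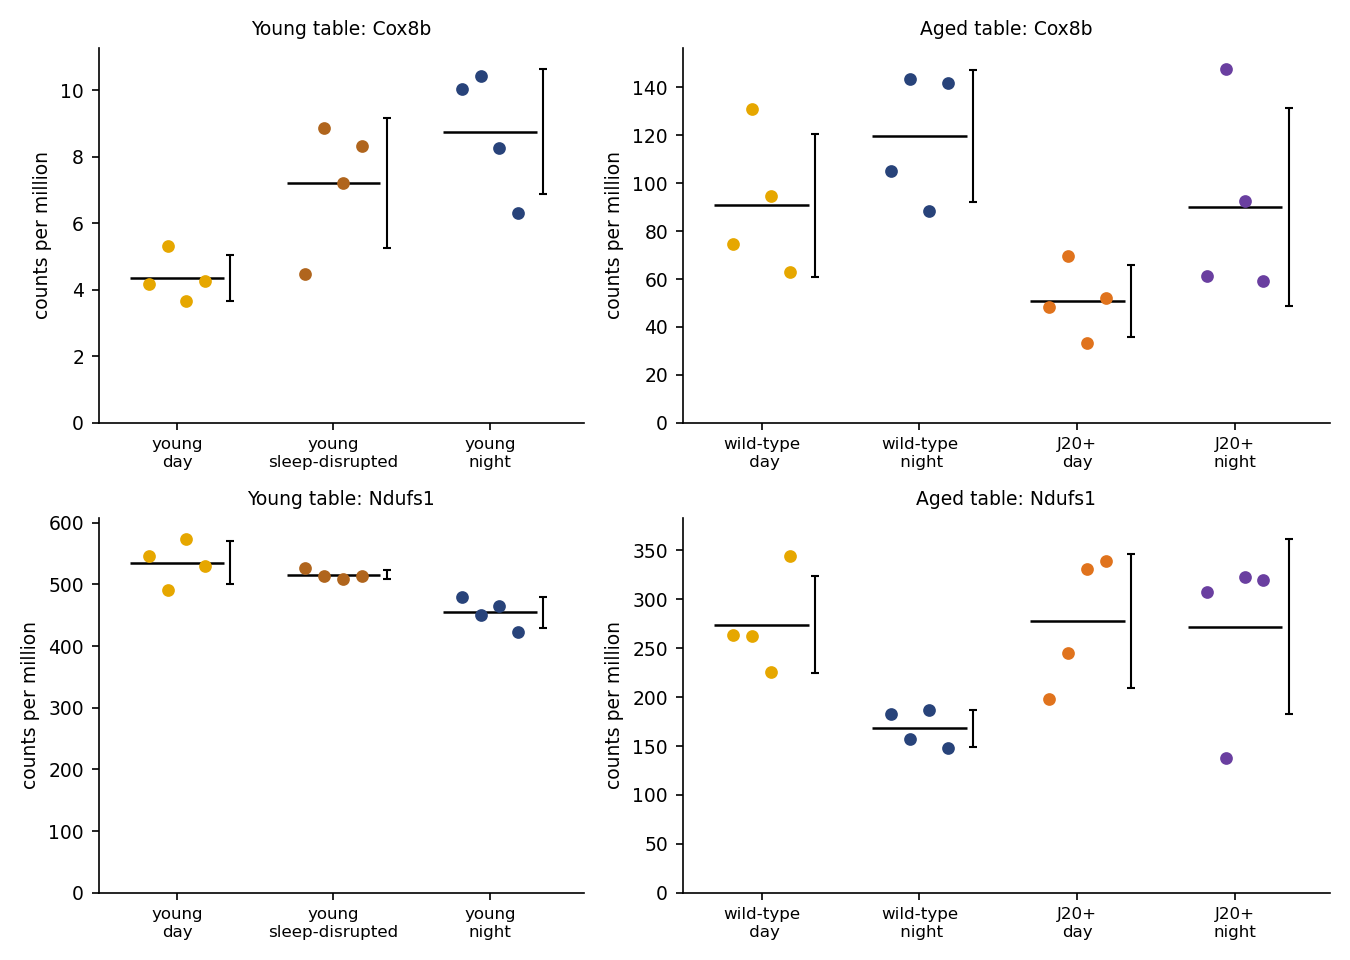
Level of Cox8b (top) and Ndufs1 (bottom) in CPM, young table left and aged table right. Points are libraries, lines are means and bars are 1 SD (n = 4); in the young table day and night do not overlap for either gene, and in J20+ night library 2 is highest for Cox8b (148 CPM) and lowest for Ndufs1 (138 CPM).

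Sleep disruption minus undisturbed day compares libraries of the same clock time and shares its day libraries with the comparison above. Most nuclear genes had values above 0 and most mitochondrial genes values below 0, with no gene called. The median log2 difference was 0.18 over nuclear genes, with 70 of 76 above 0, and -0.12 over mitochondrial genes, with 1 of 12 above 0, against 0.0036 over all genes. The mitochondrial median was -0.041 without young day 4 and -0.21 without young day 2. By complex the nuclear medians were 0.18, 0.16, 0.079, 0.19 and 0.094, and all 17 complex V genes were above 0. Cox8b gave 0.73 ± 0.22 (edgeR adjusted p = 0.861), and its groups overlapped through sleep-disrupted library 1. Cox6c, a small supernumerary subunit of complex IV, stood at 131, 131, 124 and 140 CPM by day and 135, 162, 162 and 161 CPM after disruption, a log2 difference of 0.24 ± 0.08 (edgeR adjusted p = 0.861). Its sleep-disrupted library 1 lay within the day range.

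mt-Co2, whose sequence is shared, gave 1.82 ± 0.60 (edgeR adjusted p = 0.861), and the 7 less shared mitochondrial genes lay between -0.17 and -0.093. edgeR called 0 of the 88 genes and 0% of all genes, with 9 under an unadjusted p of 0.05 against 2.40% of all genes. DESeq2 and limma-voom each called 0 genes, which is 0% of all genes. Of these subunits, Ndufv1 (0.31 ± 0.23), Cox4i1 (0.33 ± 0.22), Uqcrc1 (0.24 ± 0.22), Sdhb (0.16 ± 0.15), Atp5a1 (0.09 ± 0.08), Atp5b (0.08 ± 0.11) and Sdha (0.03 ± 0.07) were above 0. Ndufs1 (-0.05 ± 0.07), Cox5a (-0.05 ± 0.07) and Uqcrfs1 (-0.01 ± 0.06) were below. The isoforms Cox6b2 (0.46 ± 0.20), Cox7a1 (0.48 ± 0.28), Atp5g1 (0.44 ± 0.22) and Atp5g2 (0.42 ± 0.23) gave larger values than Cox6b1 (0.17 ± 0.10), Cox7a2l (0.19 ± 0.12) and Atp5g3 (0.02 ± 0.07). No test compared isoforms with each other.

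Young night minus sleep disruption sets natural night waking against enforced waking by day and shares libraries with both comparisons above. Most nuclear genes had values below 0, with no gene called. Ndufv2, an iron-sulfur subunit of complex I, stood at 194, 200, 204 and 198 CPM after disruption and 172, 163, 165 and 178 CPM at night. The groups did not overlap, and the log2 difference was -0.23 ± 0.08 (edgeR adjusted p = 0.307). Ndufs1 gave -0.18 ± 0.07 and Ndufa5, a subunit of the complex I arm that protrudes into the matrix, -0.19 ± 0.07 (edgeR adjusted p of 0.372 and 0.376).

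In this comparison 8 nuclear genes lay lower at night with no overlap: Atp5c1, Atp5g3, Atp5pb, Cox5a, Ndufs1, Ndufs4, Ndufv2 and Uqcrfs1. Among all genes 4.18% did so. No test was made of this count. edgeR called 0 of 88, with 0.38% of all genes called, and 9 genes were under an unadjusted p of 0.05 against 9.70% of all genes. DESeq2 called Uqcrfs1 alone, with 2.1% of all genes called, and limma-voom 13, with 7.36%. The median was -0.10 over nuclear genes, with 10 of 76 above 0, 0.023 over mitochondrial genes, with 10 of 12 above 0, and 0.0075 over all genes. All 7 nuclear complex III genes were below 0, with a median of -0.15, and complexes I, II, IV and V had medians of -0.11, -0.088, -0.046 and -0.069. Without young night 4, the library with the lowest nuclear share (0.846%), the nuclear median was 0.00025, with 38 of 76 above 0, and the mitochondrial median was -0.11, with 0 of 12 above 0. Without sleep-disrupted library 4 they were -0.063 and -0.014, and without sleep-disrupted library 1 -0.17 and 0.068. The mitochondrial median was 0.012 without sleep-disrupted library 2 and 0.061 and 0.10 without young night 3 and 2, and limma-voom gave -0.11 with 0 of 12 above 0. The 10 listed subunits lay between -0.20 ± 0.15 (Sdhb) and 0.02 ± 0.22 (Cox4i1), and Cox8b gave 0.28 ± 0.22.

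Aged wild-type night minus day repeats the time of day comparison in older mice. Most nuclear genes had log2 differences above 0, several large subunits had ones below 0, and no gene was called. Cox7a1, the heart and muscle form of subunit 7a, stood at 24.6, 31.2, 27.9 and 24.8 CPM by day and 28.8, 42.9, 46.6 and 52.6 CPM at night, a log2 difference of 0.66 ± 0.22 (edgeR adjusted p = 0.144). Night library 1 overlapped the day range. Ndufb4, a supernumerary complex I subunit that shares 37.0% of its windows with other transcripts, gave 0.88 ± 0.31 (edgeR adjusted p = 0.144). Ndufs1 stood at 264, 263, 226 and 344 CPM by day and 182, 157, 186 and 148 CPM at night, with no overlap and a log2 difference of -0.70 ± 0.25 (edgeR adjusted p = 0.144).

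Atp5a1, the alpha subunit of ATP synthase, stood at 1537, 1569, 1160 and 1607 CPM by day and 973, 721, 1060 and 765 CPM at night, and gave -0.74 ± 0.29. Atp5b gave -0.66 ± 0.27 and Sdha -0.73 ± 0.30, with adjusted p by edgeR of 0.145 for both. Not all listed subunits lay below 0: Sdhb gave 0.31, and Cox4i1 and Cox5a were above 0. Ndufv1, Uqcrc1 and Uqcrfs1 are not given for this comparison. Atp5a1, Atp5b, Ndufs1 and Sdha lay lower at night with no overlap, where 15.2% of all genes did so, and Cox6b2 and mt-Nd3 higher, where 10.8% of all genes did so. edgeR called 0 of the 91 genes and 0.0124% of all genes, and 30 genes were under an unadjusted p of 0.05 against 31.1% of all genes. DESeq2 called Ndufs1 alone, with 8.73% of all genes called. limma-voom called 28 higher and 13 lower, with 51.7% of all genes called, and a fit of the wild-type libraries alone called 10 higher and 4 lower, with 26.2%.

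The nuclear median was 0.28, with 57 of 78 above 0, and the mitochondrial median 0.35, with 13 of 13 above 0, against 0.031 over all genes. By complex the nuclear medians were 0.29, -0.075, 0.060, 0.45 and 0.15. Cox6a1 (0.53 ± 0.19), Cox6b1 (0.48 ± 0.23), Cox6b2 (0.63 ± 0.27), Cox8a (0.45 ± 0.20) and Cox8b (0.40 ± 0.32) were above 0, and Cox7a2 (-0.43 ± 0.35), Cox7a2l (-0.30 ± 0.26) and Ndufa4 (-0.25 ± 0.20) below. The 7 less shared mitochondrial genes lay between 0.20 and 0.37. Neural marker sums were higher and choroid epithelium sums lower in wild-type night, as given above. With a neural marker score as a covariate the mitochondrial median was -0.095, Ndufs1 gave -0.16 and Ndufb4 0.53, and the nuclear median was 0.34. The score ran from 0.787 to 4.84 in wild-type day and from 3.91 to 6.77 in wild-type night. Its part and that of the time of day thus cannot be fully told apart. Without wild-type night 3, the wild-type night library with the lowest neural sum, the nuclear median was 0.095. Without wild-type day 4 the mitochondrial median was 0.20.

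J20+ night minus day gives the same contrast in transgenic mice. All 13 mitochondrial genes and 67 of 78 nuclear genes were above 0, and no gene was called. The mitochondrial median was 0.50 and the nuclear median 0.22, against 0.015 over all genes. mt-Co1 stood at 6238, 8516, 4766 and 6618 CPM by day and 7114, 15298, 7014 and 5670 CPM at night, a log2 difference of 0.43 ± 0.29. Without J20+ night 2 the mitochondrial median was 0.016. mt-Atp8 had the smallest p, at 0.262, 0.105, 0.147 and 0.451 CPM by day and 0.204, 3.11, 4.64 and 3.05 CPM at night, a log2 difference of 3.50 ± 1.01 (edgeR adjusted p = 0.601). Night library 1 lay within the day range, and these are few counts.

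Cox8b gave 0.83 ± 0.32 and mt-Nd4l, whose sequence is shared, 1.07 ± 0.42, both with an adjusted p of 0.652 by edgeR. Cox8b stood at 48.2, 69.7, 33.4 and 51.9 CPM by day and 61.2, 148, 92.4 and 59.2 CPM at night, and the groups overlapped. Ndufa5, Ndufb3 and Ndufc2, 3 small complex I subunits, lay higher at night with no overlap, where 2.42% of all genes did so. edgeR called 0 of 91 and 0.0436% of all genes, with 9 genes under an unadjusted p of 0.05 against 7.41% of all genes. DESeq2 called mt-Atp8 alone, with 0.496% of all genes called, and limma-voom called 0, with 1.71%. By complex the nuclear medians were 0.21, 0.083, 0.097, 0.36 and 0.22. The 10 listed subunits lay between -0.16 ± 0.29 (Sdha) and 0.19 ± 0.16 (Sdhb). Ndufs1 stood at -0.03 ± 0.25, Cox4i1 at 0.17 ± 0.14 and Atp5b at -0.05 ± 0.27.

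J20+ minus wild-type at day compares the genotypes at ZT6. Of the 91 genes, 87 had log2 differences below 0, and no gene was called. The median was -0.24 over nuclear genes, with 4 of 78 above 0, and -0.53 over mitochondrial genes, with 0 of 13 above 0, against 0.027 over all genes. Cox8b stood at 74.7, 131, 94.7 and 62.9 CPM in wild-type and 48.2, 69.7, 33.4 and 51.9 CPM in J20+, a log2 difference of -0.84 ± 0.32 (edgeR adjusted p = 0.989). J20+ day 2 lay above the lowest wild-type library. Atp5l, the ATP synthase subunit g, which shares 84.9% of its windows with other transcripts, stood at 193, 216, 174 and 171 CPM in wild-type and 132, 155, 138 and 166 CPM in J20+. Those groups did not overlap, and the log2 difference was -0.35 ± 0.14 (edgeR adjusted p = 0.989). Cox4i1 gave -0.34 ± 0.14, with an adjusted p by edgeR of 0.989.

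In all, 14 of the 91 genes lay lower in J20+ with no overlap, where 1.03% of all genes did so. They were Atp5g1, Atp5j, Atp5j2, Atp5k, Atp5l, Atp5md, Cox6b1, Cox6c, Cox7a1, Cox7b, Ndufa2, Ndufa5, Ndufb3 and Uqcrb, all nuclear, 6 of them in complex V and 4 in complex IV. edgeR called 0 of 91 and 0% of all genes, with 7 genes under an unadjusted p of 0.05 against 1.87% of all genes. DESeq2 called 0, with 0% of all genes called, and limma-voom called 30, all lower, with 14.7%. By complex the nuclear medians were -0.20, -0.16, -0.19, -0.33 and -0.31, and all 7 complex III and all 17 complex V genes were below 0. The 10 listed subunits lay between -0.34 ± 0.14 (Cox4i1) and 0.02 ± 0.25 (Ndufs1), with Cox5a at -0.27 ± 0.17 and Atp5a1 at -0.09 ± 0.29. The 7 less shared mitochondrial genes lay between -0.56 and -0.49. mt-Atp8, a gene of few counts, gave -2.20, the lowest value of the 91 genes. Leaving out wild-type day 2 brought the nuclear median to -0.13. J20+ day libraries held 19550770 to 43885898 counts against 15101043 to 20493087 counts in wild-type day, and the part of depth in these values was not tested.

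J20+ minus wild-type at night compares the genotypes at ZT18. Most genes had log2 differences below 0 and several large subunits ones above 0, with no gene called. Ndufs1 stood at 182, 157, 186 and 148 CPM in wild-type and 307, 138, 323 and 320 CPM in J20+, a log2 difference of 0.69 ± 0.25 (edgeR adjusted p = 0.09998). J20+ night 2 lay below the wild-type range and the other 3 libraries above it. Ndufb3, a small membrane subunit of complex I, stood at 75.9, 84.8, 113 and 105 CPM in wild-type and 66.2, 82.7, 72.1 and 72.5 CPM in J20+, and gave -0.37 ± 0.14 (edgeR adjusted p = 0.102). Cox7a1 gave -0.56 ± 0.22 (edgeR adjusted p = 0.113). The neural and choroid epithelium sums of the 2 night groups are given above. With the neural score as a covariate Ndufs1 gave 0.078 and the mitochondrial median was 0.018. The score ran from 0.839 to 4.76 in J20+ night and from 3.91 to 6.77 in wild-type night, so it varied with group.

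edgeR called 0 of 91 and 0.00622% of all genes, with 12 genes under an unadjusted p of 0.05 against 31.9% of all genes. DESeq2 called 4, Ndufs1 higher and Ndufb3, Ndufb9 and Atp5mpl lower, with 18.8% of all genes called. limma-voom called 10 higher and 60 lower, with 72.1%. Without J20+ night 2, edgeR called 8 higher and 48 lower, in a fit that called 57.7% of all genes. The median was -0.29 over nuclear genes, with 13 of 78 above 0, and -0.37 over mitochondrial genes, with 1 of 13 above 0, against -0.0085 over all genes. Leaving out 1 library moved the mitochondrial median to -0.88, -0.17 and -0.19 without J20+ night 2, 4 and 1, and to -0.22 without wild-type night 3, where the nuclear median was -0.12. By complex the nuclear medians were -0.30, -0.046, -0.24, -0.39 and -0.27. Sdha (0.59 ± 0.29), Atp5a1 (0.58 ± 0.29), Atp5b (0.49 ± 0.27) and Ndufv1 (0.22 ± 0.16) were above 0, and Cox4i1 (-0.28 ± 0.14), Sdhb (-0.28 ± 0.16), Cox5a (-0.26 ± 0.17), Uqcrc1 (-0.01 ± 0.14) and Uqcrfs1 (-0.01 ± 0.17) below. The isoforms Cox6a1 (-0.46 ± 0.19), Cox6b2 (-0.39 ± 0.27), Cox8b (-0.41 ± 0.32) and Cox8a (-0.35 ± 0.20) were below 0 as well.

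The difference between the night-day changes of the 2 genotypes was tested as an interaction. edgeR called 0 of 91 and 0% of all genes, and 0 genes were under an unadjusted p of 0.05 against 12.4% of all genes. The smallest p values belonged to Ndufs1 (0.67 ± 0.35), Atp5a1 (0.68 ± 0.41) and Atp5b (0.61 ± 0.38), with an adjusted p of 0.434, 0.471 and 0.480 by edgeR. With the neural score as a covariate these 3 values were 0.031, 0.012 and -0.0030. The score varied with group, as given above, so its part and that of the group cannot be fully told apart. DESeq2 called 0, with 0.0565% of all genes called, and limma-voom called 12, with 33.3%. Without J20+ night 2 edgeR called 5, with 20.9% of all genes called. The nuclear median was -0.024, with 31 of 78 above 0, and the mitochondrial median 0.16, with 11 of 13 above 0, against 0.057 over all genes. With the neural score as a covariate the medians were -0.12, with 24 of 78 above 0, and 0.59, with 13 of 13 above 0. Leaving out 1 library at a time gave nuclear medians from -0.14 (without wild-type day 2) to 0.18 (without wild-type night 3), and thus of either sign. The mitochondrial medians ran from -0.30 without J20+ night 2 and 0.041 without J20+ day 3 to 0.38 without J20+ night 4.

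Log2 differences of nuclear genes varied with properties of their transcripts, and so did those of all genes. Across the 76 young nuclear genes the Spearman rho between log2 difference and GC content was 0.586 for night minus day, 0.571 for sleep disruption minus day and 0.292 for night minus sleep disruption, and across all genes 0.476, 0.583 and -0.045. These genes share libraries and are not independent. In aged wild-type night minus day, the 47 nuclear genes with transcripts under 1000 nt had a median of 0.37, the 23 of 1000 to 2000 nt -0.087 and the 8 longer ones 0.021, against 0.40, 0.15 and -0.084 for all genes of those lengths. In J20+ minus wild-type at night the medians were -0.35, -0.066 and -0.13, against -0.33, -0.16 and 0.14. Nuclear genes of short transcripts thus had medians near those of all short transcripts in both comparisons. In J20+ minus wild-type at day the short nuclear genes had a median of -0.28 and all short genes -0.16. RNA quality was not analysed here, and the part of transcript length or GC content in these differences was not tested.

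**Figure D5:**
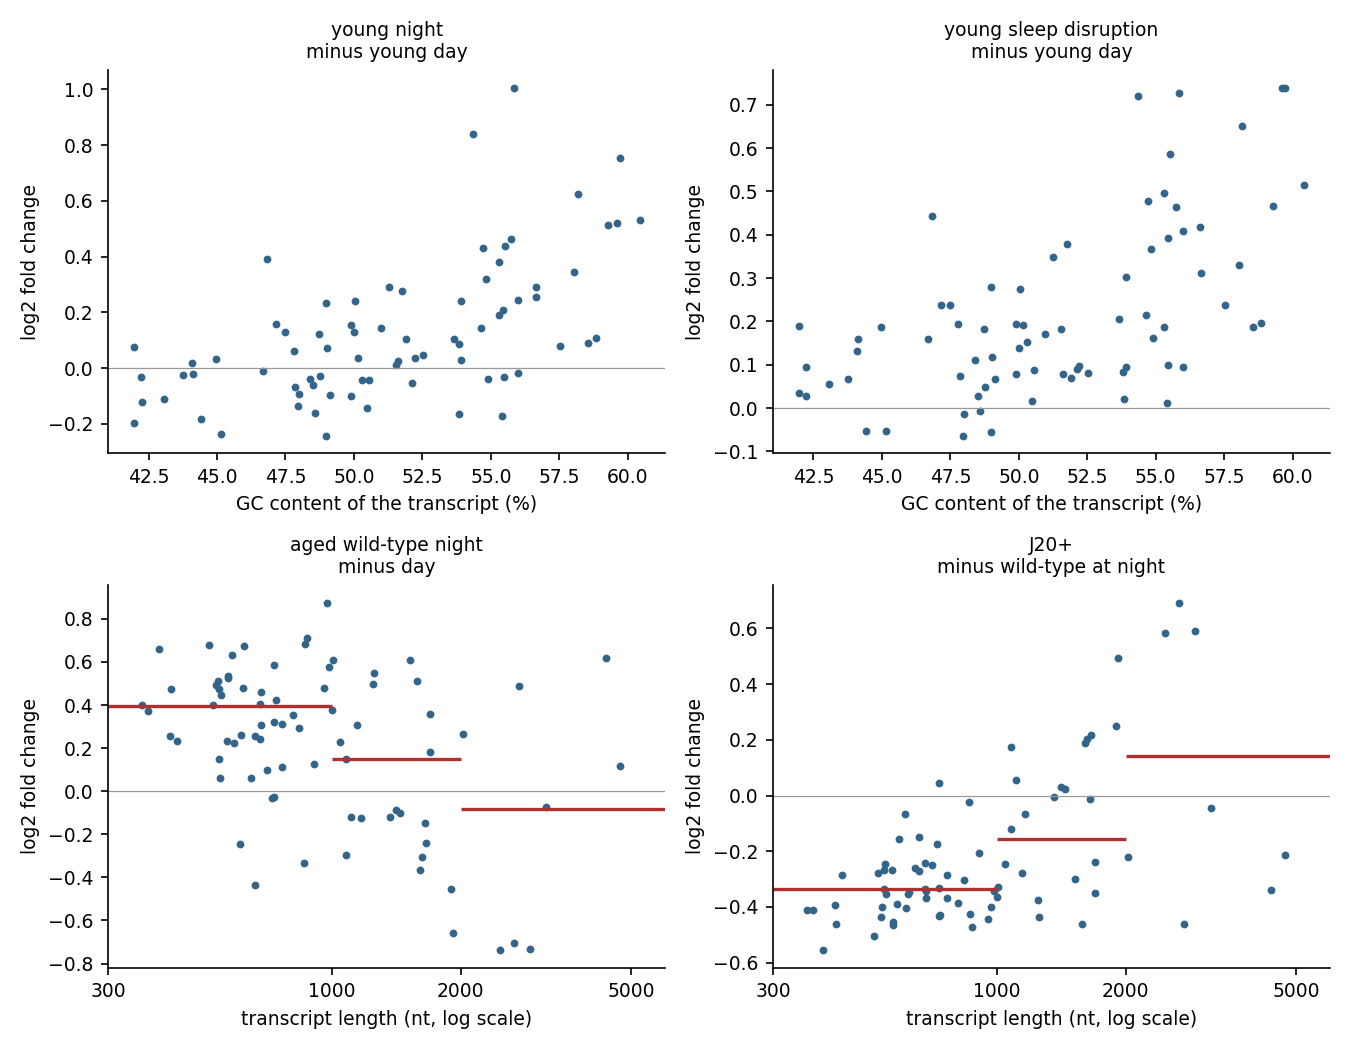
Log2 fold change of nuclear respiratory chain genes (points) against GC content of the transcript in 2 young comparisons (top) and against transcript length, on a log scale, in 2 aged comparisons (bottom). Red lines are medians of all genes in 3 length classes; the short genes lie around the line of all short genes, at 0.40 in wild-type night minus day and -0.33 in J20+ minus wild-type at night.

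Genes around the chain gave no call either. None of 48 assembly factors, 18 genes of electron carriers and coenzyme Q synthesis, 29 regulators of mitochondrial biogenesis and mitochondrial DNA expression, 14 citric acid cycle genes, 17 glycolysis genes and 30 mitochondrial ribosome genes passed an adjusted p of 0.05 in any comparison by edgeR. In sleep disruption minus day 14 of 18 carrier genes (median 0.12) and 24 of 30 ribosome genes (0.10) were above 0, and in night minus sleep disruption 2 of 18 (-0.10) and 7 of 30 (-0.093) were. In aged wild-type night minus day 0 of 14 citric acid cycle genes (median -0.45) and 2 of 17 glycolysis genes (-0.50) were above 0, against 27 of 48 assembly factors (0.093). In J20+ minus wild-type at night 11 of 14 (0.34) and 14 of 17 (0.44) were above 0. Of the 29 regulators 13 (-0.13) and 21 (0.12) were above 0 in these comparisons. Gabpa, the DNA-binding subunit of the ETS factor GABP, gave -0.79 ± 0.28 in wild-type night minus day (edgeR adjusted p = 0.144) and 0.83 ± 0.28 in J20+ minus wild-type at night (edgeR adjusted p = 0.0927). Ppargc1a, the coactivator PGC-1 alpha, gave -0.62 ± 0.31 and 0.81 ± 0.31 in the same comparisons. These 2 comparisons share the wild-type night libraries.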

How the data were processed

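Poly(A) libraries (TruSeq Stranded mRNA, NovaSeq) were made from choroid plexus of PBS-perfused mice, per the labels' protocols. The deposited tables hold raw counts per Entrez gene; the submitters' processing notes list, in no stated order, the mm10 genome, featureCounts 2.0.1 for counting, HISAT2 2.2.1 for alignment, and cutadapt, FastQC 0.11.8, Picard 2.18.2 and DESeq2. For annotation, strand and multi-mapping, no setting is given in those notes or the labels. IDs were matched to symbols (25275 of 27179). Each table was fitted alone in edgeR 4.0.16 (R 4.3.3: filterByExpr, TMM, robust quasi-likelihood fit, 1 coefficient per group), with Benjamini-Hochberg adjustment. The fits held 14983 young and 16065 aged genes. The fit was also run on simulated counts with the same fixed spread for all genes and no deviant library. That run therefore does not cover the spread of these libraries. CPM values are TMM-scaled. Length and GC content come from 1 GENCODE M21 principal transcript per gene, and shared 50-base windows from its transcripts. DESeq2 1.42.0, limma 3.58.1 voom, other scalings and filters, a neural score covariate and left-out libraries were alternatives. Members and lists were chosen with earlier results of these data known. Named genes were the 3 with the smallest p per comparison (none was called), 10 subunits spread over the 5 complexes, isoforms, mitochondrial genes and the highest and lowest 3 levels per complex; others are named where groups did not overlap or a tool called them, chosen after their values were seen. Within-group library pairs differed beyond sampling noise (chi-square per gene 4.57 to 409 over 42 pairs). 1 result is not reported here.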

Additional observations from a re-analysis of the deposited data

Results flagged for a closer look

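In 14 of 119 sets of 4 values tested, 1 library lay far from the other 3 by Dixon's criterion. Chance gives this in about 5% of independent sets. These sets are measures taken in the same 7 groups of libraries and are not independent, so the 14 cannot be judged against that rate. Library J20+ night 2 was the one in most of them. It had a mitochondrial share of 7.21% against 1.87 to 2.53%, mt-Co1 at 15298 CPM against 5670 to 7114, Cox6b1 at 454 against 202 to 237 and Cox6b2 at 197 against 79.2 to 80.4. It was low for Ndufs1 (138 CPM against 307 to 323), Atp5b (648 against 1666 to 1851), Sdha (197 against 652 to 670) and Atp5a1 (511 against 1503 to 1639). Young night 4 was low for Atp5b (929 CPM against 1275 to 1315) and Uqcrfs1 (142 against 155 to 158), and young day 4 was low for Atp5b (1051 against 1218 to 1231). Wild-type day 3 was low for Atp5a1 (1160 CPM against 1537 to 1607). Wild-type night 3 was high for Uqcrfs1 (194 CPM against 136 to 145), and wild-type night 1 was low for Cox6b1 (267 CPM against 381 to 391).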

How the results depend on the processing

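Of 420 alternative values for the counts called and the medians, 398 kept their main result. The number of genes called by edgeR was 0 in all 8 comparisons and depended most on the tool. DESeq2 called 3 in young night minus day, 1 in night minus sleep disruption, 1 in wild-type night minus day, 1 in J20+ night minus day and 4 in J20+ minus wild-type at night. limma-voom called 32, 13, 41, 0 and 70 in these, 30 in J20+ minus wild-type at day and 12 in the interaction. The neural covariate gave 1 call in young night minus day, with 0.447% of all genes called. It gave a mitochondrial median of -0.095 in wild-type night minus day. A fit of the 2 wild-type groups alone gave 14 calls there, with 26.2% of all genes called. Leaving out 1 library at a time gave 0 to 1 calls in young night minus day (1 without young night 4), 0 to 56 in J20+ minus wild-type at night and 0 to 5 in the interaction (both highest without J20+ night 2). Interaction medians then ran from -0.14 to 0.18 (nuclear, highest without wild-type night 3) and from -0.30 to 0.38 (mitochondrial, lowest without J20+ night 2). Without J20+ day 1 and night 2 together, edgeR called 36 in wild-type night minus day and 61 in J20+ minus wild-type at night, and the interaction medians were -0.31 (mitochondrial) and -0.17 (nuclear). The causes were not tested. Of 5007 alternative values for named genes, 4636 kept their result as to calls, but 423 had the other sign without being called, and 3 reversed with a call, all in genes whose sequence is shared: limma-voom gave -1.60 for mt-Atp6 in J20+ minus wild-type at night (0.63 in edgeR) and -1.997 for mt-Co2 in the interaction (0.086 in edgeR), and mt-Co2 was -2.48 without J20+ night 2 and 0.57 without J20+ day 1. No paired analysis was possible because the replicate numbers were given in accession order and pair no libraries. The lowest genes, such as mt-Atp8 and Sdhd, had few counts, so their values are imprecise. Why they were low was not tested.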
